A study of Mus musculus with 10 samples.

Results

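Ptpn14, Dab2ip and Hpcal1 are 3 mouse genes described here by the ChIP-seq peaks that lie on them in R1E embryonic stem cells. They were chosen from the readout: windows of 100 kb at these genes gained both RNA polymerase II (Pol II) and dimethylated lysine 79 of histone H3 (H3K79me2) length after Adriamycin. The members are all peaks of 10 deposited lists that overlap the gene spans on mm9 extended by 20 kb on each side. That gave 430 of 543779 peaks, of which 154 lay at Ptpn14, 175 at Dab2ip and 101 at Hpcal1. The spans were chr1:191552100-191700600 for Ptpn14 (148.5 kb), chr2:35413700-35586600 for Dab2ip (172.9 kb) and chr12:17697700-17798800 for Hpcal1 (101.1 kb).

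The cells were kept with serum and leukemia inhibitory factor, had under 20 passages and came from a mixed C57BL/6X129Sv background. The treated cells had received 0.5 uM Adriamycin (doxorubicin) for 8 h, and their reference was untreated cells of the same line. ChIP-seq, which sequences the DNA fragments pulled down with an antibody, was done for Pol II, H3K79me2, H3K4me3, H3K27me3 and the RNA-binding protein hnRNP L. Each target had 1 library per condition, so no difference below has a replicate check, a standard deviation or a p-value, and read depth is unknown.

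Adriamycin poisons topoisomerase II, breaks DNA and activates the p53 pathway. Pol II peaks mark sites that the polymerase occupies, and H3K79me2, placed by Dot1l, covers the transcribed part of active genes from their 5′ end. H3K4me3 marks active and poised promoters, and H3K27me3 marks Polycomb repression. Ptpn14 encodes a cytoplasmic tyrosine phosphatase that restrains the Hippo pathway effector Yap and has been described as a p53 target. Dab2ip encodes a GTPase-activating protein that switches off Ras and also serves as a scaffold in stress kinase signalling. Hpcal1 encodes a calcium-binding protein of the neuronal calcium sensor family.

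The promoters are shown because H3K4me3 at the starts of the gene spans differs between the genes. RefSeq on GRCm38.p6 lists 1 start for Ptpn14, 4 for Dab2ip and 1 for Hpcal1, and all 3 genes matched by symbol. Each window runs from 250 bases before to 50 after a start, on the plus strand. Dab2ip starts 2 and 4 are not printed, and their counts follow the sequences. The windows printed are chr1:189728018-189728317 for Ptpn14, chr2:35558208-35558507 and chr2:35621731-35622030 for Dab2ip starts 1 and 3, and chr12:17690559-17690858 for Hpcal1. These coordinates are on GRCm38.p6 and were not carried over to mm9, on which all peaks are given. Capitals mark the GC box letters GGGCGG, searched on both strands.
Ptpn14: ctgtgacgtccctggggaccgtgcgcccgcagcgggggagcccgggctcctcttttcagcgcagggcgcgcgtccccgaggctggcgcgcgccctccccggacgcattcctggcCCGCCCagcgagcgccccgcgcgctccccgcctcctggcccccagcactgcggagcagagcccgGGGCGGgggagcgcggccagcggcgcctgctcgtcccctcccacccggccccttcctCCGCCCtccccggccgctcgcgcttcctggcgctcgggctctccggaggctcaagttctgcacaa
Dab2ip start 1: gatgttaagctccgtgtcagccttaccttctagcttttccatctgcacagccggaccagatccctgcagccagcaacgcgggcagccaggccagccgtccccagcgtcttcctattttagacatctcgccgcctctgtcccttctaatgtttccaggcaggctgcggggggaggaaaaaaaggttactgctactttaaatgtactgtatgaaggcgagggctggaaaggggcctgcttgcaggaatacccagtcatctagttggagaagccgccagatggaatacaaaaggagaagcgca
Dab2ip start 3: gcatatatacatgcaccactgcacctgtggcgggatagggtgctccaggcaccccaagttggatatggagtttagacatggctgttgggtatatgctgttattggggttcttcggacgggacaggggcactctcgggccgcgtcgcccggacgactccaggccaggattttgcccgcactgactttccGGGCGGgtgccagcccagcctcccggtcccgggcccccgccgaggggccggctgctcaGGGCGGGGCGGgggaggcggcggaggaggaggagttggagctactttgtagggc
Hpcal1: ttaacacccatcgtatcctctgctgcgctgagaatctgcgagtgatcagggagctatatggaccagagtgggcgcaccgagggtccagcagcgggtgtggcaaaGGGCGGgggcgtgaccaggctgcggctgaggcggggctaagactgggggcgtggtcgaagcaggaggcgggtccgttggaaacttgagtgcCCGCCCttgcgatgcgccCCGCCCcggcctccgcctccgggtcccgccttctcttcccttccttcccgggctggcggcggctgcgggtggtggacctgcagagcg

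The Ptpn14 promoter held 40 CG dinucleotides, that of Hpcal1 27, and the 4 Dab2ip starts 12, 29, 21 and 5 in order. The median over 32851 RefSeq promoter windows of the same length was 7. GC boxes numbered 3 at Ptpn14, 3 at Hpcal1, and 0, 4, 3 and 1 at the Dab2ip starts, with overlapping matches counted separately. Of all promoter windows, 35.7% held at least 1 GC box. The letters CCAAT were found on either strand once each at Dab2ip starts 2, 3 and 4, against 37.4% of all windows. TATAAA was found in none of the 6 windows, against 13.6% of all. The p53 half-site was also found in none of them, against 8.36% of all.

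After Adriamycin, Pol II peaks covered more of each of the 3 loci than in untreated cells. This contrast chose the genes, so the values are a description. Pol II peaks covered 69.5 kb of the Ptpn14 locus in Adriamycin-treated cells and 9.03 kb in untreated cells, a log2 ratio of 2.81 with 1 kb added to each length. At Hpcal1 they covered 27.4 kb after Adriamycin and 1.31 kb in untreated cells (log2 ratio 3.62). At Dab2ip, which carried the most Pol II in untreated cells, they covered 48.8 kb after Adriamycin and 26.7 kb in untreated cells (log2 ratio 0.85). The length was at least 2-fold higher at 2 of 3 loci, against 2.53% of the 12035 windows of 100 kb that held a Pol II peak. Any higher Pol II length was found at 3 of 3 loci, against 27.9% of those windows, and at least 2-fold lower length at 0 of 3, against 13.3%. The count of 2 was 3 with equal numbers of top-scoring peaks (Dab2ip log2 ratio 1.05) and relative to the whole lists (Dab2ip 1.345).

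H3K79me2 also covered more of each locus after Adriamycin, in another order of the genes. At Dab2ip the peaks covered 98.6 kb in Adriamycin-treated cells and 27.2 kb in untreated cells (log2 ratio 1.82). At Hpcal1 they covered 76.4 kb after Adriamycin and 40.2 kb in untreated cells (log2 ratio 0.91). At Ptpn14 they covered 81.7 kb after Adriamycin and 47.0 kb in untreated cells (log2 ratio 0.79). The length was at least 2-fold higher at 1 of 3 loci, against 1.98% of 7568 windows with an H3K79me2 peak. It was higher by any amount at 3 of 3, against 30.8% of those windows, and at least 2-fold lower at 0 of 3, against 2.44%. The count of 1 was 3 among peaks scoring at least 100 (log2 ratios 1.17 at Ptpn14, 2.06 at Dab2ip and 1.12 at Hpcal1), 2 relative to the whole lists (Hpcal1 1.01) and 0 without the longest Dab2ip peak. Ptpn14 and Hpcal1 had larger Pol II ratios than Dab2ip. Dab2ip had the largest H3K79me2 log2 ratio with that peak and the smallest, at 0.71, without it.

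**Figure D1:**
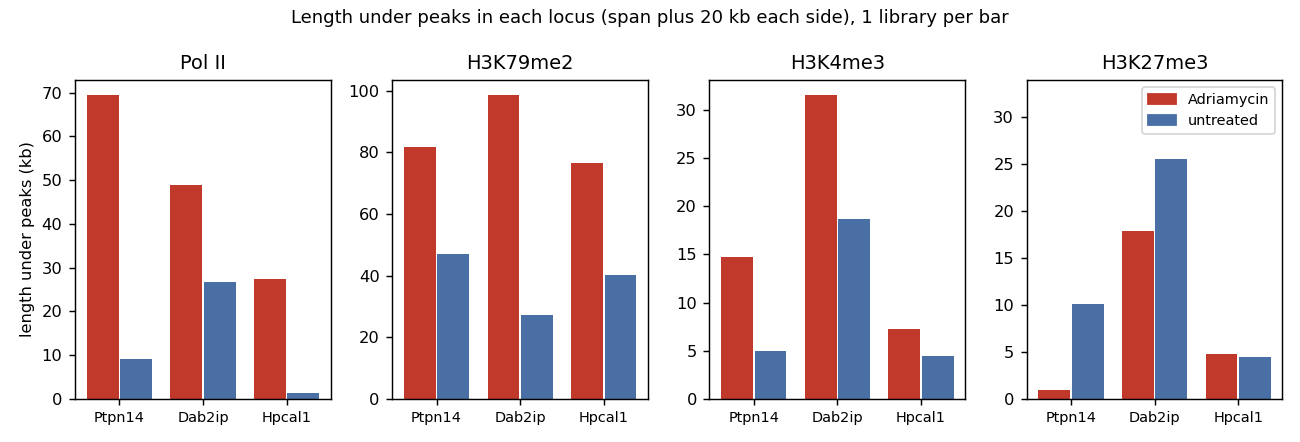
Length under peaks (kb) of Pol II, H3K79me2, H3K4me3 and H3K27me3 in the 3 loci, each the gene span plus 20 kb on either side. Each bar is 1 library, with Adriamycin left of untreated, and each panel has its own scale from 0. Pol II, H3K79me2 and H3K4me3 bars are higher after Adriamycin at each gene, and H3K27me3 is lower at Ptpn14 (0.965 kb after Adriamycin and 10.1 kb untreated) and Dab2ip (17.9 and 25.6 kb in the same order).

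These gains ran against the whole lists. Pol II peaks covered 54.7 Mb of the genome after Adriamycin and 77.4 Mb in untreated cells, and H3K79me2 peaks 130.1 Mb and 138.9 Mb. The surroundings had less Pol II after Adriamycin on 5 of 6 sides. In the 500 kb before the Ptpn14 locus, Pol II covered 4.20 kb after Adriamycin and 17.7 kb in untreated cells, and in the 500 kb after it 2.21 kb and 3.005 kb. Around Hpcal1 it covered 21.8 kb and 31.1 kb before the locus, and 6.69 kb and 9.82 kb after it, in the same order of conditions. Around Dab2ip it covered 29.6 kb and 38.1 kb before, and 9.27 kb and 9.10 kb after. The log2 ratio of H3K79me2 lay between -0.26 and -0.01 on the 6 sides.

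All windows of 100 kb were ranked by the smaller of their Pol II and H3K79me2 gains in kb, the kind of measure that chose the genes. The 3 highest were the window of Ptpn14 from 191600001 (smaller gain 26.1 kb), that of Hpcal1 from 17700001 (26.1 kb) and that of Dab2ip from 35500001 (19.6 kb). The fourth, on chromosome 4 from 149400001, had 10.9 kb, and the fifth, on chromosome 5 from 35300001, 10.8 kb. By Pol II gain alone the windows of Ptpn14, Hpcal1 and Dab2ip ranked 1, 3 and 10, and by H3K79me2 gain alone 6, 4 and 2. Both lengths were at least 2-fold higher in the windows of Ptpn14 and Dab2ip, and the H3K79me2 log2 ratio at Hpcal1 was 0.95. Over the genome 32 of 7439 windows with both targets met that limit, or 0.43%. Any gain in both lengths was found in 9.09% of the same windows and in the 3 just named.

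**Figure D2:**
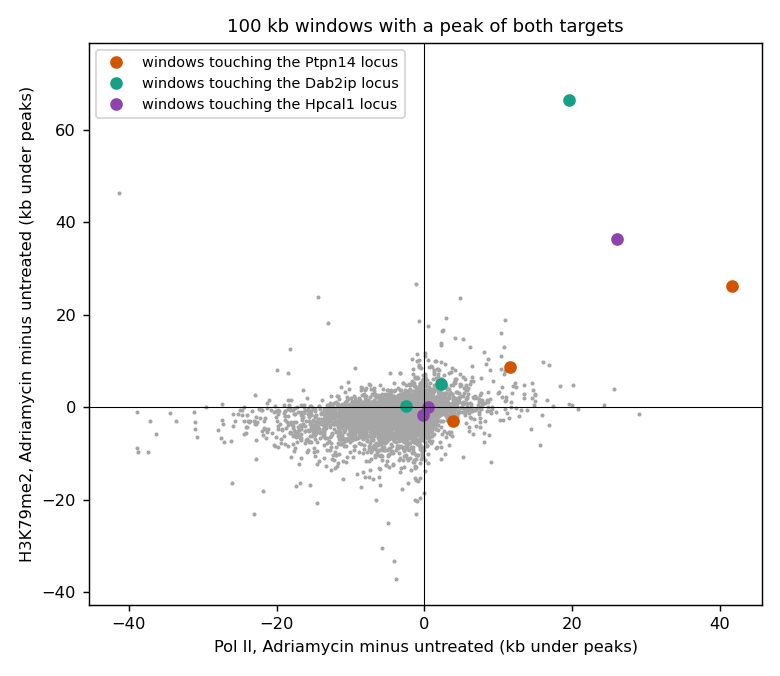
Difference in length under peaks, Adriamycin minus untreated, of Pol II (horizontal, kb) and H3K79me2 (vertical, kb). Each grey point is a window of 100 kb with a peak of both targets in either condition, and coloured points are windows that touch the 3 loci. The windows with smaller gains of 26.1, 26.1 and 19.6 kb stand apart at the upper right, and the others that touch the loci lie nearer to 0.

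Pol II at Ptpn14 lay in the gene body and towards the 3′ end. With the span cut into 3 equal parts of 49.5 kb, Pol II covered 14.8, 17.2 and 28.6 kb from 5′ to 3′ after Adriamycin, and 0, 1.68 and 2.335 kb in untreated cells. The highest-scoring Pol II peak after Adriamycin, at chr1:191696288-191701049 with a score of 992.75, ended 0.449 kb past the span end and had no untreated partner. The next without a partner were at chr1:191612469-191614013 (score 622.15) and chr1:191625033-191625988 (score 252.19). Of 59 Pol II peaks in the Adriamycin list at this locus, 49 had no partner in the untreated list. Of the 12 untreated peaks there, 1 had no partner after Adriamycin. It was the highest-scoring untreated Pol II peak of the locus, at chr1:191715849-191717405 (score 299.4), 15.2 kb past the span end.

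No Pol II peak lay within 2 kb of the Ptpn14 start in either condition. The nearest began 6.50 kb inside the gene after Adriamycin and lay 30.7 kb before the start in untreated cells. Whether the peak caller left out signal at the start was not tested. Past the 3′ end, the 20 kb downstream held 8.89 kb of Pol II after Adriamycin and 5.01 kb in untreated cells. In RefSeq the next gene there is Smyd2, on the opposite strand, so Pol II near this end cannot be assigned to 1 gene. Overlapping the gene, RefSeq also lists the antisense lncRNAs Gm51739 and Gm26574 and the pseudogene Gm30280, and ChIP-seq peaks carry no strand.

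**Figure D3:**
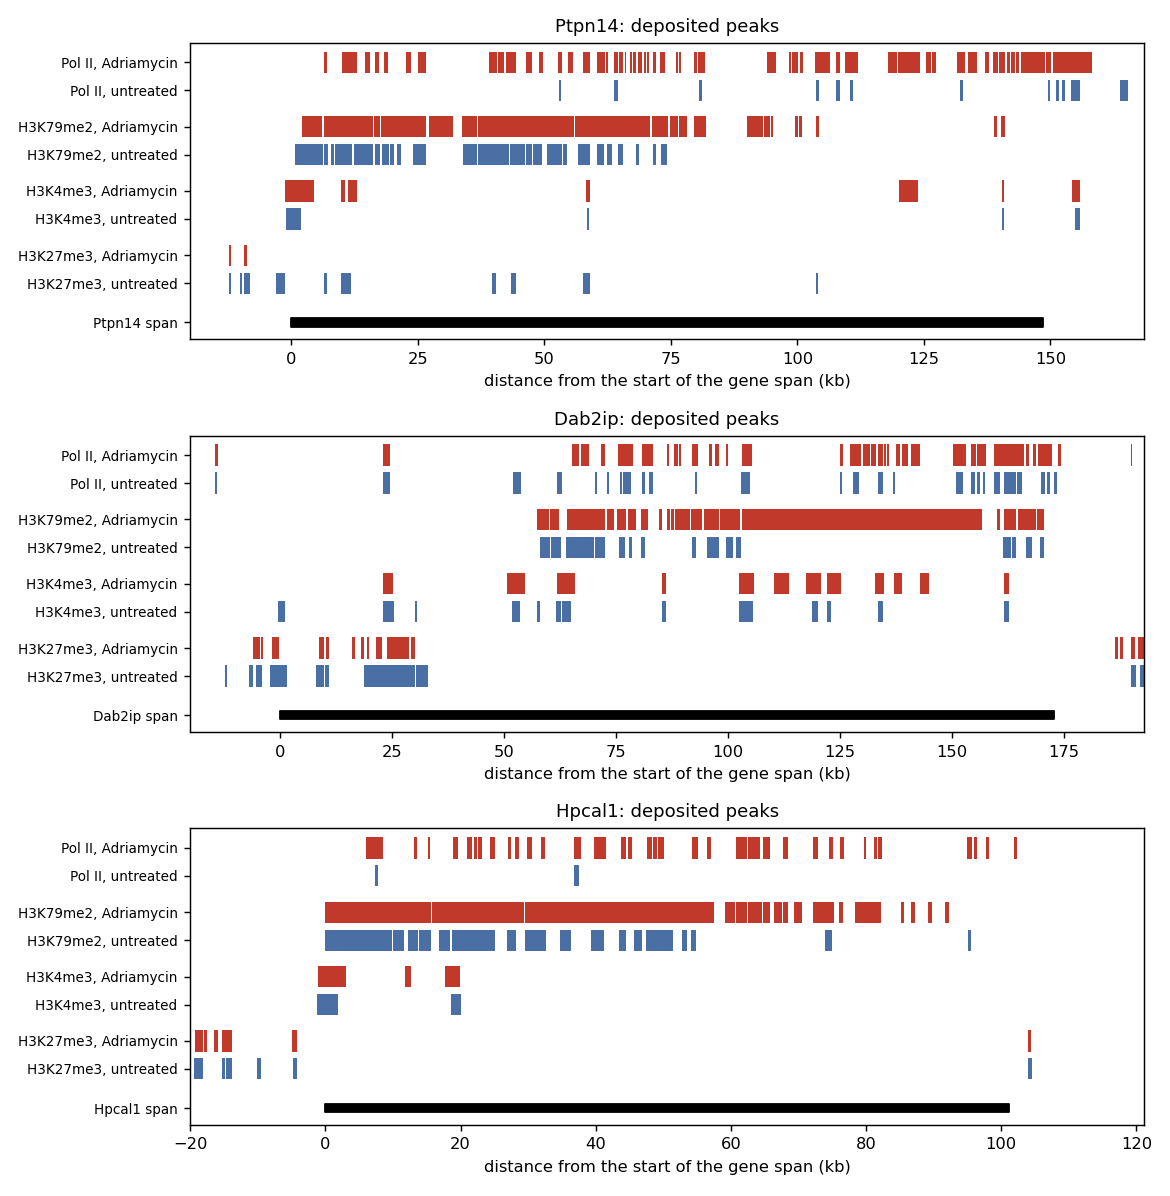
Deposited peaks at Ptpn14, Dab2ip and Hpcal1 by distance from the start of the gene span (kb), drawn to scale, with 20 kb on each side. Red boxes are peaks of the Adriamycin lists and blue boxes those of the untreated lists, 1 library per row, and the black bar is the gene span. hnRNP L had 0 peaks at the 3 loci in either list and is not drawn.

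H3K79me2 at Ptpn14 reached further into the gene after Adriamycin. It covered 44.1, 34.6 and 2.996 kb of the 3 parts after Adriamycin, and 35.5, 11.5 and 0 kb in untreated cells. The last untreated H3K79me2 peak ended 74.2 kb from the start. After Adriamycin, peaks without an untreated partner began at 76.5 kb (score 293.3), 79.6 kb (score 373.32) and 93.3 kb (score 308.2). H3K79me2 and Pol II parted towards the 3′ end, where the last part held 28.6 kb of Pol II and 2.996 kb of H3K79me2 after Adriamycin.

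At Dab2ip the first 50 kb differed from the rest of the gene. No H3K79me2 peak began before 57.4 kb after Adriamycin or before 58.2 kb in untreated cells, and Pol II in the first of 3 equal parts covered 1.66 kb after Adriamycin and 3.25 kb in untreated cells. In the middle and last parts Pol II covered 17.0 and 28.5 kb after Adriamycin, against 8.10 and 14.1 kb in untreated cells. H3K79me2 covered 48.0 and 50.4 kb of the same parts after Adriamycin, against 22.1 and 5.06 kb in untreated cells. The highest-scoring Pol II peak after Adriamycin (score 1552.86) was the longest too, at chr2:35573202-35578208, and began 159.5 kb from the start. It overlapped 3 untreated peaks. RefSeq lists the lncRNA Gm13446 on the opposite strand as overlapping this gene.

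Much of the H3K79me2 gain at Dab2ip was a single Adriamycin peak of 53.5 kb. By length it ranked 4 among 71959 peaks in that list, and it lay in a stretch of 58.5 kb without any untreated H3K79me2 peak. That stretch held 19 Pol II peaks after Adriamycin (21.9 kb) and 11 in untreated cells (10.4 kb). It also held 9 H3K4me3 peaks after Adriamycin (18.5 kb) and 4 in untreated cells (6.20 kb), and 0 H3K27me3 peaks in either condition. Without it the log2 ratio was 0.71 in place of 1.82, below Hpcal1 (0.91) and Ptpn14 (0.79). Whether the untreated list omits signal in this stretch was not tested.

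Hpcal1 had the least Pol II in untreated cells. Its 2 untreated Pol II peaks lay 7.38 kb (score 163.74) and 36.7 kb (score 60.88) from the start, and both overlapped Adriamycin peaks. After Adriamycin 38 Pol II peaks were spread over the locus, 36 of them without a partner, and their median score was 72.7. Pol II covered 9.25, 12.1 and 5.575 kb of the 3 parts of the span after Adriamycin, against 0.459, 0.848 and 0 kb in untreated cells. H3K79me2 began at the start in both conditions, and it covered 33.5, 31.1 and 11.7 kb of the parts after Adriamycin, against 27.3, 11.2 and 1.58 kb in untreated cells. RefSeq lists the lncRNAs Gm40842, on the same strand, and Gm51995, on the opposite strand, as overlapping this gene.

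Over the 3 loci, 110 of 142 Adriamycin Pol II peaks and 44 of 80 Adriamycin H3K79me2 peaks had no untreated partner. In the whole Adriamycin lists these shares were 26.1% and 18.0%. In the other direction 7 of 43 untreated Pol II peaks and 1 of 60 untreated H3K79me2 peaks had no partner after Adriamycin, against 48.0% and 19.0% of the whole untreated lists. The same contrast chose the loci, so nothing is read from these counts.

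**Figure D4:**
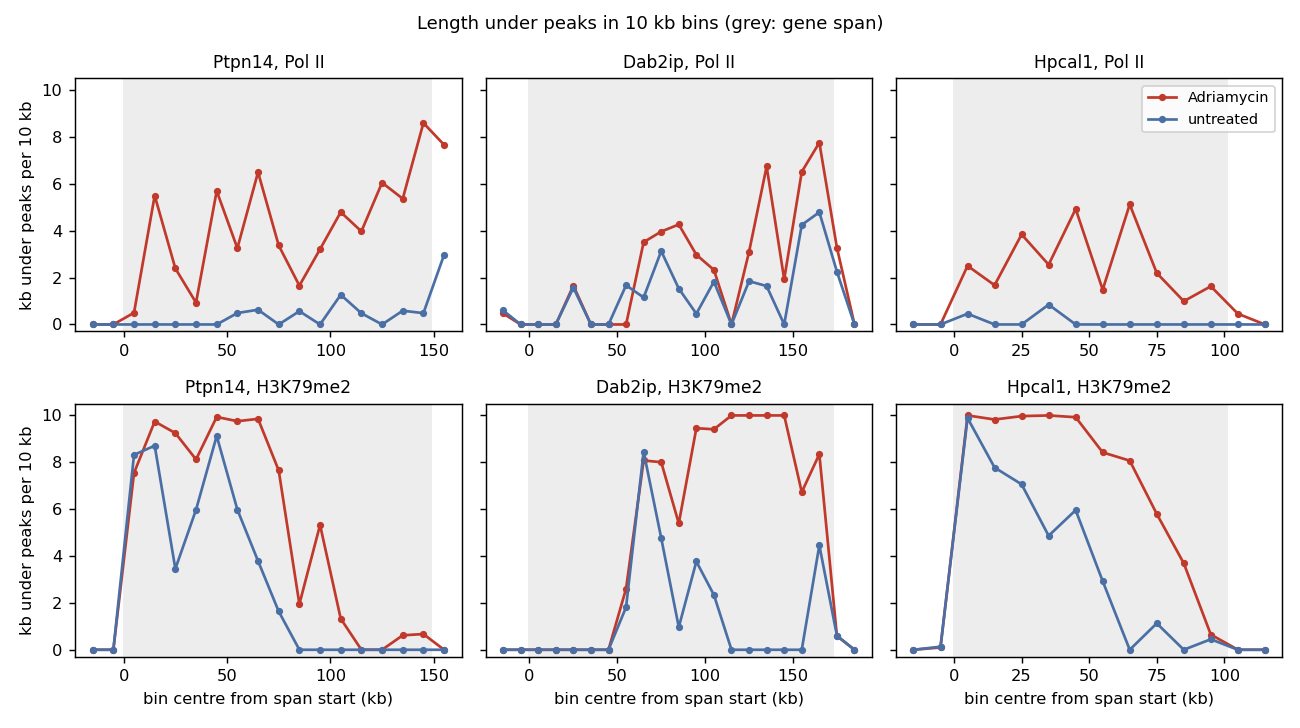
Length under Pol II (top) and H3K79me2 (bottom) peaks in full bins of 10 kb along each locus, against the distance of the bin centre from the span start (kb). Red is Adriamycin, blue is untreated, 1 library each, and grey marks the gene span. H3K79me2 is nearly alike in both conditions in the first bin of the span at Ptpn14 and Hpcal1. At Dab2ip the first bin of the mark, from 50 kb, holds 2.61 kb after Adriamycin and 1.82 kb untreated. Several bins further in differ more. Pol II at Ptpn14 is highest near the 3′ end (8.60 kb after Adriamycin and 0.483 kb untreated in the bin from 140 kb).

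The places of the gains can be seen in bins of 10 kb. In the first bin of the Ptpn14 span H3K79me2 covered 7.55 kb after Adriamycin and 8.32 kb in untreated cells, and in the bin from 60 kb it covered 9.85 kb and 3.79 kb. In the first bin of Hpcal1 it covered the whole bin and 9.89 kb, and in the bin from 60 kb 8.07 kb and 0 kb. In the Dab2ip bin from 60 kb it covered 8.08 kb and 8.45 kb, and in the bin from 110 kb the whole bin and 0 kb. Of the bins given here, those at the 5′ side of the mark were nearly alike between conditions. Those further in were picked for having the largest gain at their locus, so nothing is read from their larger difference. In other bins the gain did not rise steadily with distance from the start. At Ptpn14 H3K79me2 covered 9.25 kb and 3.46 kb of the bin from 20 kb, and 9.94 kb and 9.12 kb of that from 40 kb. A bin nearly full in untreated cells, as the first of Hpcal1, could not show a large gain.

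Bases with Pol II only after Adriamycin lay partly on H3K79me2. They came to 26.1 kb at Hpcal1, of which 90.7% lay under H3K79me2 peaks of Adriamycin cells and 54.8% under those of untreated cells. At Dab2ip they came to 27.7 kb, with 86.7% and 30.6% under these peaks. At Ptpn14 they came to 62.1 kb, with 50.5% and 31.0%. Ptpn14 therefore had the most such Pol II length outside H3K79me2, at 30.7 kb, against 3.69 kb at Dab2ip and 2.43 kb at Hpcal1. H3K79me2 peaks of Adriamycin cells covered 54.2% of the Hpcal1 locus, 46.3% of Dab2ip and 43.4% of Ptpn14. Those of untreated cells covered 28.5%, 12.8% and 24.9% in the same order. Gains in both targets chose the loci, so nothing is read from these overlaps. Bases covered in untreated cells were mostly covered after Adriamycin too. For Pol II this share was 82.1% at Ptpn14, 79.2% at Dab2ip and 100.0% at Hpcal1, and for H3K79me2 it was 96.6%, 94.6% and 98.6%. The share of bases over the whole lists is not given here, so nothing is read from these values either.

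H3K4me3 was not used to choose the genes, and it covered more of each locus after Adriamycin. At Ptpn14 it covered 14.7 kb after Adriamycin and 4.96 kb in untreated cells (log2 ratio 1.3998). At Dab2ip it covered 31.6 kb and 18.7 kb (log2 ratio 0.73), and at Hpcal1 7.27 kb and 4.395 kb (log2 ratio 0.62), in the same order of conditions. Higher H3K4me3 length was found in 40.2% of 13797 windows with a peak, and at least 2-fold higher length in 0.841% of them. It was at least 2-fold higher at 1 of 3 loci, Ptpn14, and at 0 of 3 with 5 kb added in place of 1 kb (Ptpn14 log2 ratio 0.99). It was at least 2-fold lower at 0 of 3, against 1.36% of windows. Within the loci it was at least 2-fold higher in each of the 3 windows of 100 kb that ranked highest, with log2 ratios of 1.54 at Ptpn14, 1.24 at Dab2ip and 1.01 at Hpcal1. The Hpcal1 window starts at 17700001, past the end of the untreated promoter peak (17699487) but before that of the Adriamycin peak (17700704). Its value thus counts part of the promoter peak after Adriamycin and none of it in untreated cells. With 1 library per condition the difference in H3K4me3 was not tested.

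The promoter peaks of Ptpn14 and Hpcal1 were wider on their gene side after Adriamycin. At the Ptpn14 start the H3K4me3 peak was 5.76 kb wide after Adriamycin, at chr1:191550839-191556600, and 3.06 kb wide in untreated cells, at chr1:191551022-191554083. Its downstream edge lay 4.50 kb into the gene after Adriamycin and 1.98 kb in untreated cells. At Hpcal1 the peak was 4.12 kb wide after Adriamycin and 2.98 kb in untreated cells. The scores are not compared, since 21.2% of Adriamycin and 23.3% of untreated H3K4me3 peaks share the score 3100. The downstream edge of the Hpcal1 peak lay 3.004 kb into the gene after Adriamycin and 1.79 kb in untreated cells. Among 8336 H3K4me3 peaks that matched 1 to 1 and were at least 2 kb wide in untreated cells, the median difference was -167 bp. A gain as large as that at Ptpn14 (2700 bp) was found in 0.3% of them, and one as large as that at Hpcal1 (1136 bp) in 1.62%. In all 1.93% of them were wider by at least 1 kb.

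Of 13 H3K4me3 peaks in the 3 loci that matched 1 to 1, 10 were wider after Adriamycin and 3 narrower, against 31.3% wider among all 29710 such peaks. Peaks of 1 locus share their surroundings and are not replicates. New H3K4me3 peaks with a score of at least 100 lay at chr1:191672285-191675967 (score 385.31) and chr1:191563284-191564508 (score 165.86) in Ptpn14. In Dab2ip there was 1, at chr2:35550914-35552546 (score 560.62), and Hpcal1 had none. Without the limit on score, 9 of 25 Adriamycin peaks had no untreated partner, against 15.8% of that list, and 3 of 19 untreated peaks had none after Adriamycin, against 14.5%. Past the 3′ end of Ptpn14, a further H3K4me3 peak was 1.55 kb wide after Adriamycin and 0.885 kb in untreated cells.

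Dab2ip had H3K4me3 at several places, with 14 peaks after Adriamycin and 13 in untreated cells. RefSeq places its later starts 24.4, 63.5 and 133.5 kb after the first on GRCm38.p6. Of the 13 untreated peaks on mm9, the 4 nearest to these distances began 0.355 kb before the span start and 22.9, 63.1 and 133.6 kb after it. These distances come from separate builds and were only set side by side. The peak at the span start had no Adriamycin partner and a score of 116.72 in untreated cells. The sequence printed for Dab2ip start 1 has no GC box. The peak from 22.9 kb was 2.33 kb wide after Adriamycin and 2.49 kb in untreated cells. The peak from 133.6 kb was 2.03 kb wide after Adriamycin and 1.07 kb in untreated cells. Near the distance of start 3, an Adriamycin peak of 4.15 kb from 61.8 kb overlapped untreated peaks of 0.985 kb from 61.7 kb and 1.98 kb from 63.1 kb. It therefore has no 1 to 1 match. Among the Dab2ip peaks that matched 1 to 1, those with the largest gains in width lay near none of the starts listed. The one from 51.9 kb was 4.02 kb wide after Adriamycin and 1.66 kb in untreated cells, and the one from 118.7 kb was 3.415 kb and 1.31 kb wide. A peak from 102.4 kb in untreated cells, with the list's shared score of 3100, also lay near none of them, and H3K79me2 covered the stretch after it only in the Adriamycin list. Between 110 and 120 kb H3K4me3 covered 5.86 kb after Adriamycin and 1.25 kb in untreated cells.

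H3K27me3 covered less of Ptpn14 and Dab2ip after Adriamycin and was nearly even at Hpcal1. At Ptpn14 the peaks covered 0.965 kb after Adriamycin and 10.1 kb in untreated cells (log2 ratio -2.50). The surroundings had less as well, with 15.5 kb after Adriamycin and 27.8 kb in untreated cells in the 500 kb before the locus (log2 ratio -0.81). In the 500 kb after it the lengths were 25.1 kb and 38.8 kb (log2 ratio -0.61). Of its 10 untreated peaks 8 had no partner after Adriamycin, with scores up to 125.59. Of these 8, the 6 inside the gene span overlapped Pol II peaks of the Adriamycin list, and 1 overlapped one in untreated cells. Over the whole list 4.65% of 40237 such lost peaks overlapped Adriamycin Pol II and 5.28% untreated Pol II. Ptpn14 was chosen for its Pol II gain, so nothing is read from the 6. Untreated H3K79me2 peaks already overlapped 5 of the 8, against 1.61% of the lost peaks in the whole list. The choice of Ptpn14 used H3K79me2 as well, so nothing is read from the 5. At Dab2ip 4 untreated H3K27me3 peaks had no partner and at Hpcal1 1, and 0 of them overlapped Adriamycin Pol II. The untreated H3K27me3 peak at chr1:191561860-191563920 (score 86.84) overlapped H3K4me3 peaks and Pol II peaks of scores 99.02 and 149.68 in the Adriamycin lists. An untreated H3K79me2 peak (score 408.65) already covered all of it. H3K27me3 length at least 2-fold lower was found at 1 of 3 loci, against 8.23% of 15926 windows with a peak. Length at least 2-fold higher was found at 0 of 3, against 0.483%, and any higher length at 1 of 3, against 19.4%.

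At Dab2ip H3K27me3 was confined to the first part of the span and the flanks in both lists. It covered 17.9 kb after Adriamycin and 25.6 kb in untreated cells (log2 ratio -0.49), and the log2 ratio of the whole lists was -0.42. Its strongest peak scored 913.85 after Adriamycin, at chr2:35437622-35440192, and 1019.83 in untreated cells, at chr2:35437489-35442860. Both overlapped the H3K4me3 peak from 22.9 kb, and a Pol II peak lay there too, with a score of 133.16 after Adriamycin and 161.62 in untreated cells. At Hpcal1 H3K27me3 covered 4.77 kb after Adriamycin and 4.44 kb in untreated cells, all of it outside the span. Over the 3 loci 7 of 29 Adriamycin peaks and 13 of 32 untreated peaks of H3K27me3 had no partner. These pooled shares were near those of the whole lists, 27% and 41.2%. By locus the untreated counts were uneven, with 8 of 10 at Ptpn14, 4 of 15 at Dab2ip and 1 of 7 at Hpcal1.

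hnRNP L had 0 peaks at the 3 loci, out of 1022 after Adriamycin and 1120 in untreated cells. The nearest to the start of Hpcal1 lay 942.5 kb away after Adriamycin and 442.6 kb in untreated cells.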

How the data were processed

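ChIP-seq peak lists for 5 targets in Adriamycin-treated and untreated R1E cells, 1 library each, were used as deposited. Per the submitters' processing notes, CASAVA 1.8.2 and MACS 1.4.1 were used on mm9. The deposited score of each peak is the authors' value. In MACS of this generation it is 10 times the negative log10 of a p-value, and the highest in the lists is 3233.06. Scores describe peaks within a list, and many strong peaks share the score 3100. Input, duplicate handling and depth were not given in the sources used here. The part of depth in longer or new peaks was not tested.

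Covered length is the number of bases under peaks inside a locus (span and 20 kb each side). Log2 ratios are Adriamycin over untreated with 1 kb added to each. Peaks are partners when they overlap by at least 1 bp. Background windows of 100 kb were tiled over the numbered chromosomes, X and Y, and those with a peak of the target in either list were counted. These windows are shorter than the loci, which are 141.1 to 212.9 kb long with their flanks. A window with under 1 kb under peaks in both lists cannot reach a 2-fold change, yet it is counted among the windows. The named peaks are the highest-scoring and the longest of each list at a locus, and up to 3 unpartnered ones with a score of at least 100. Others were named after their values were seen. Alternatives are given in the closing section.

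The genes, spans and comparisons were chosen with earlier results of these data known. The gene spans come with the choice of genes. Promoters and neighbouring genes are from RefSeq on GRCm38.p6. The window and overlap steps were tested on simulated data. The software was Python 3.11.15 with numpy 2.4.6, pandas 2.3.3 and matplotlib 3.10.9. Gene lists that need an annotation on mm9 were not run.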

Additional observations from a re-analysis of the deposited data

How the results depend on the processing

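Each log2 ratio of covered length kept its direction under the alternatives run. Of the 93 alternative values, 77 stayed within 1.5 times of the ratio (with the log undone), count or share reported. The Ptpn14 Pol II log2 ratio (2.81) was 3.42 with equal numbers of top-scoring peaks and 3.62 in the span alone. The Hpcal1 Pol II log2 ratio (3.62) was 4.28 with equal numbers of top-scoring peaks, 2.61 with scores of at least 100 and 2.36 with 5 kb added. The Dab2ip H3K79me2 log2 ratio (1.82) was 0.71 without its longest peak, an alternative chosen after seeing the data. The Ptpn14 H3K27me3 log2 ratio (-2.50) was -1.34 with 5 kb added. Counts of loci at least 2-fold higher also changed. For Pol II the count of 2 became 3 with equal numbers of top-scoring peaks and relative to the whole lists. For H3K79me2 the count of 1 became 3 with scores of at least 100, 2 relative to the whole lists and 0 without the longest peak, and for H3K4me3 the count of 1 became 0 with 5 kb added. With 5 kb added the fixed amount weighs more against short lengths. Relative to the whole lists, the log2 ratio of the list lengths (-0.50 for Pol II and -0.09 for H3K79me2) was subtracted. Without the longest peak its 53.5 kb were left out. These changes follow from the settings, and for the other changes the cause was not tested.

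Peaks scoring 100 or more that overlapped no peak of the other condition numbered 38 for Pol II, 21 for H3K79me2, 3 for H3K4me3 and 3 for H3K27me3 after Adriamycin, and 2, 0, 1 and 3 in untreated cells. Among all peaks they numbered 110, 44, 9 and 7 after Adriamycin, and 7, 1, 3 and 13 in untreated cells. Shares of the whole lists are given above for all peaks only, not for those scoring 100 or more. The Pol II and H3K79me2 contrast chose the loci, so nothing is read from these counts. When partners had to share 50% of the shorter peak's length, the untreated H3K79me2 count was 2. The share of windows with both lengths at least 2-fold higher lay between 0.346% and 0.493% over the 5 alternatives. Hpcal1 H3K27me3 had no peak in the span, so the span alone gave no value. Unknown depth limits what a missing peak means. No paired analysis was possible because each target and condition has 1 library.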
